A study of Mus musculus with 6 samples.

Results

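Polycomb proteins keep developmental genes silent, and the 9 genes described here encode parts of their complexes: the PRC2 subunits Ezh1, Ezh2, Eed and Suz12, the PRC2 partners Jarid2 and Mtf2, and the PRC1 chromodomain proteins Cbx2, Cbx7 and Cbx8. They were chosen by gene symbol, reached through the transcript accession of each array probe, and make up 9 of 17016 genes named on the array, with 14 of 24375 named probes. All 9 passed the filter on dim signals, and every one of the 14 probes was well above background on all 6 arrays.

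Gene expression was measured in mouse pluripotent cells of strain 129 with one-colour Agilent arrays, 1 array per group. The 6 groups were an epiblast stem cell (EpiSC) line from E3.5 embryos with SB431542 and the same line untreated, an EpiSC line from E5.5 embryos with SB431542 and untreated, and mouse embryonic stem (mES) cells with SB431542 and untreated. The mES cells are labelled E3.5, the stage of the first EpiSC line. SB431542 blocks the kinase of the receptors ALK4, ALK5 and ALK7, through which Nodal, Activin and TGF-beta signal. Treated cells were given 20 µM each day for 4 days. All groups share Knockout DMEM medium with 20% KSR, a serum replacement, and each EpiSC stage is represented by a single line. EpiSCs model the primed epiblast and depend on Activin and Nodal signalling, while mES cells model the naive epiblast.

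PRC2 places a repressive methyl mark on histone H3. Ezh1 or Ezh2 is its catalytic subunit, Eed binds the mark and stimulates the enzyme, Suz12 holds the core together, and Jarid2 and Mtf2 help bring it to its targets. The Cbx proteins read the mark through a chromodomain and sit in canonical PRC1, one Cbx protein per complex. In mouse ES cells Cbx7 is known as the main Cbx protein of PRC1, with Cbx2 and Cbx8 among those taking its place as cells differentiate.

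Signals are log2 values of the processed intensity relative to the 75th percentile of the same array, so that 0 marks that percentile. The array carries probes of differing brightness, so each gene is compared with itself across arrays. The exception is the summed signal of marker lists, in which brighter probes weigh more. Well above background were 82.6% to 85.7% of the gene spots, depending on the array, and 0 were saturated. The labelled states were visible in markers, with exceptions. Fgf5, a primed epiblast gene, stood at 3.07 and 4.32 in the untreated E3.5 and E5.5 EpiSCs and at -2.62 in untreated mES cells. By limma 3 of 4 primed genes examined passed as higher in untreated EpiSCs, and Otx2 did not (adjusted p = 0.747). Otx2 stood at -0.18 and 2.54 in those EpiSCs, against -0.04 in untreated mES cells. The naive gene Zfp42 stood at -2.01 and -5.15 in the same EpiSCs and at 5.77 in the mES cells. Of the 5 naive genes examined, all with negative estimates, 1 passed by limma as lower in untreated EpiSCs (Dppa3, adjusted p = 0.0399). The other 4 did not, Zfp42 among them (adjusted p = 0.0587). In the EpiSCs given SB431542, Pou5f1, the gene of the pluripotency factor Oct4, stood at -5.39 (E3.5) and -4.38 (E5.5), against 5.73 and 5.88 in the untreated lines. In the same order the Notch effector gene Hes5 of neural progenitors stood at 6.08 and 4.92, against -1.28 and -1.66. In mES cells Pou5f1 stood at 5.35 with SB431542 and at 5.59 without. RNA was taken from whole cultures, in which fewer cells expressing a gene and less RNA per cell cannot be told apart.

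The Cbx genes showed a switch of subunits in both EpiSC lines under SB431542. Cbx7 fell to 0.106 times its untreated level and Cbx8 rose 6.57-fold from a dim signal. In mES cells the treated level was 0.917 times the untreated level for Cbx7 and 0.919 times for Cbx8, with no replicate there. Of the 9 members, these passed the test of treated against untreated EpiSCs. The stretch around each of their transcription starts is shown because they are the opposite ends of this switch. The sequences are RefSeq promoters of build GRCm38.p6, from 250 bases before to 50 bases after the start, on the minus strand at chr15:79932597-79932896 for Cbx7 and chr11:119040864-119041163 for Cbx8. Capitals mark CG dinucleotides.
Cbx7: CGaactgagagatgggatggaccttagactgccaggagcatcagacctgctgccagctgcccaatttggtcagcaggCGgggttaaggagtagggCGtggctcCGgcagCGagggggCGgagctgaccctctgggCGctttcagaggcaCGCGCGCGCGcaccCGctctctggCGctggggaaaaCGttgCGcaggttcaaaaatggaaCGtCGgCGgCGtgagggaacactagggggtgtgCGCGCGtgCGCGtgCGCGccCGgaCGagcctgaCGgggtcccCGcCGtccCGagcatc
Cbx8: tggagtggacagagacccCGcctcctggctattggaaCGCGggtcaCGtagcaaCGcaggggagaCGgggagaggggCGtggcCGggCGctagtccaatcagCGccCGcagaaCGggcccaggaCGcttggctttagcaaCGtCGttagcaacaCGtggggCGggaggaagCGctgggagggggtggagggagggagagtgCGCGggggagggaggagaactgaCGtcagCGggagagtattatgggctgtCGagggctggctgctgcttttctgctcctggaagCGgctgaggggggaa
Both are rich in CG, with 33 CG dinucleotides in Cbx7 (more than 91.4% of 32851 promoters of 300 bases) and 24 in Cbx8 (more than 80.0%), against a median of 7. This is not particular to them, since members that were not called had 41 (Suz12), 31 (Ezh2) and 17 (Eed). Mtf2 had 30 in 1 of its promoters and 2 in another. The letters CAGAC, searched on both strands as the core of the Smad box, occur 1 time in the Cbx7 stretch and 0 times in the Cbx8 stretch, and 49.6% of all these promoters hold them. Eed, which was not called, holds them 2 times. A match of letters is a description and says nothing of binding. Promoters were found for 8 of the 9 members, the exception being Cbx2.

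Cbx7, the chromodomain protein of PRC1 in self-renewing ES cells, stood at -0.44 in E3.5 EpiSCs with SB431542, against 2.65 in untreated E3.5 EpiSCs. It stood at -0.97 in E5.5 EpiSCs with SB431542, against 2.40 in untreated E5.5 EpiSCs, and at 3.60 in mES cells with SB431542, against 3.73 in untreated mES cells. Both treated EpiSC arrays lay below every other array, and the mES pair differed by less than the EpiSC lines differed from one another. The treated level was 0.117 times the untreated level in the E3.5 line and 0.0968 times in the E5.5 line. The fitted fall was -3.23 ± 0.32 (SE, n = 2 treated and 2 untreated EpiSC arrays, limma adjusted p = 0.0323). From high to low the order was mES, mES with SB431542, untreated E3.5 EpiSC, untreated E5.5 EpiSC, treated E3.5 EpiSC and treated E5.5 EpiSC, and the range of 4.70 was the widest of the 9 members. Within each of the 3 classes so ordered (mES, untreated EpiSC, treated EpiSC), neighbours differed by no more than 0.52.

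Cbx8, whose product recruits PRC1 to developmental genes during differentiation, took the opposite course. It stood at -0.53 in E3.5 EpiSCs with SB431542, against -3.28 in untreated E3.5 EpiSCs, and at -0.24 in E5.5 EpiSCs with SB431542, against -2.92 in untreated E5.5 EpiSCs. In mES cells it stood at -3.52 with SB431542, against -3.40 untreated. The 4 other arrays lay within 0.60 of each other, and the treated EpiSC arrays stood clear above them. The treated level was 6.74 times the untreated level in the E3.5 line and 6.41 times in the E5.5 line. The fitted rise was 2.72 ± 0.29 (SE, n = 2 and 2, limma adjusted p = 0.0344). Its only probe gave intensities of 112 to 162 on the 4 other arrays, against 1251 and 1236 in treated E3.5 and E5.5 EpiSCs. Across the 7 alternatives that kept every array the rise was 2.16 to 2.72, and only normexp background correction and quantile normalization altered its signal.

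Cbx2, another PRC1 chromodomain protein, lay in the direction of Cbx8 but did not pass. It stood at 2.01 in E3.5 EpiSCs with SB431542, against 1.18 untreated, and at 2.28 in E5.5 EpiSCs with SB431542, against 1.12 untreated. The mES levels were 0.26 with SB431542, against 0.31 untreated. By this probe the arrays fell into 3 levels, with treated EpiSCs above untreated EpiSCs and these above both mES arrays. The fitted difference between treated and untreated EpiSCs was 0.99 ± 0.27 (95% interval 0.29 to 1.69, unadjusted for the number of genes, limma adjusted p = 0.156). A second, dimmer Cbx2 probe gave differences of 0.21 in the E3.5 pair and 0.89 in the E5.5 pair. By that probe untreated EpiSCs did not stand above mES cells, at -3.78 (E3.5) and -4.18 (E5.5), against -3.88 in untreated mES cells.

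**Figure D1:**
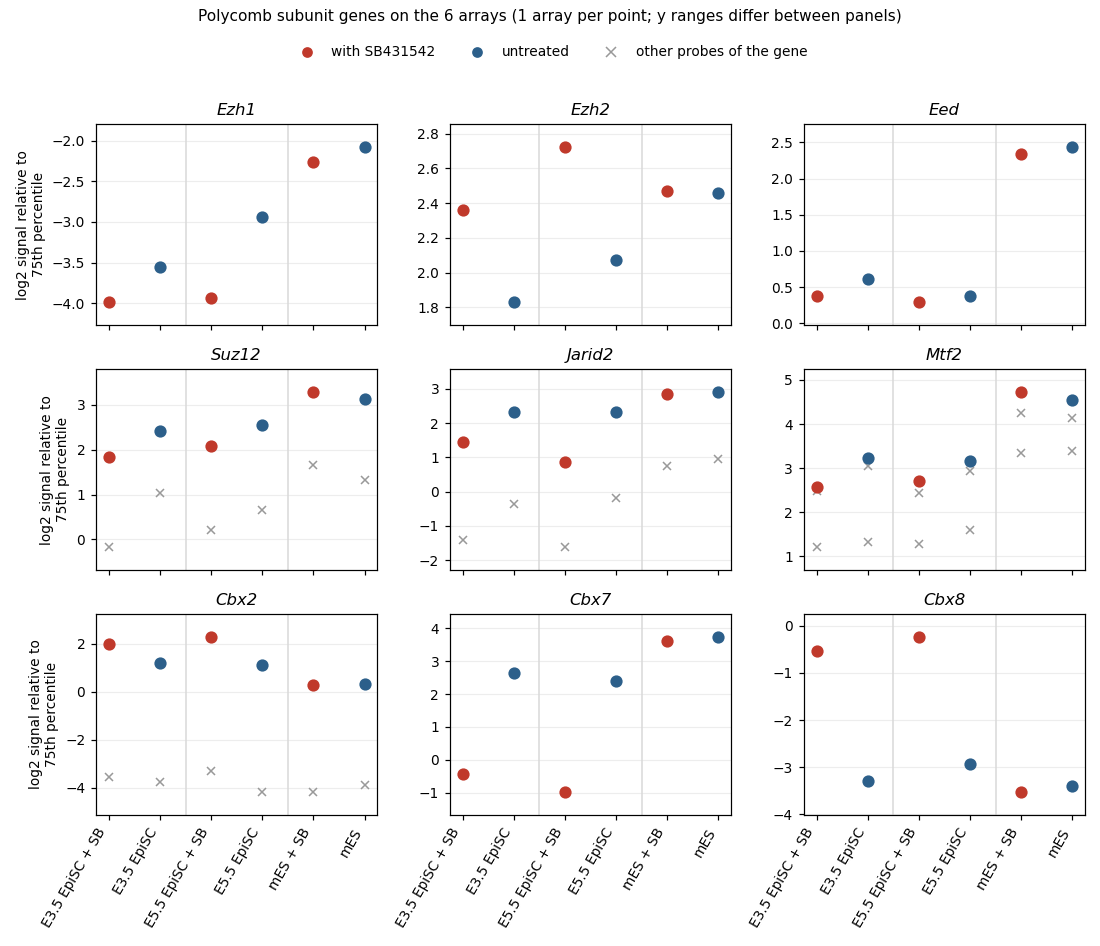
Log2 signal relative to the 75th percentile of each array for the 9 genes, with 1 point per array, red with SB431542 and blue untreated; crosses are the other probes of a gene, and the y range differs between panels. Cbx7 is lowest and Cbx8 highest on the 2 treated EpiSC arrays. Ezh1, Eed, Suz12, Jarid2, Mtf2 and Cbx7 are highest on the 2 mES arrays.

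Of the 9 members, 1 rose (Cbx8), 1 fell (Cbx7) and 7 did not pass between treated and untreated EpiSCs, where 0.922% of the 16153 genes tested rose and 1.21% fell, 2.13% in all. The median over the members was -0.54, beside -0.19 over all genes tested. With the line as a block, 872 genes passed in place of 344, and the members called stayed at Cbx7 (adjusted p = 0.0159) and Cbx8 (adjusted p = 0.0203). The E5.5 pair lay on 1 slide, whereas the treated and untreated E3.5 arrays lay on slides of their own. Within the shared slide Cbx7 differed by -3.37 and Cbx8 by 2.68. The calls rest on 4 arrays. The Cbx7 call was lost without the untreated E3.5 array (-3.11, adjusted p = 0.0596), without the treated E3.5 array (-3.49, adjusted p = 0.14) and without the treated E5.5 array (-2.97, adjusted p = 0.0703). The Cbx8 call was lost without the untreated E3.5 array (2.54, adjusted p = 0.0906), the treated E3.5 array (2.86, adjusted p = 0.14), the untreated E5.5 array (2.90, adjusted p = 0.0586) or the treated E5.5 array (2.57, adjusted p = 0.0762).

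The switch was summarised as the change of Cbx7 less the mean change of Cbx2 and Cbx8, which compares each probe only with itself. With SB431542 this was -4.89 in the E3.5 line, -5.29 in the E5.5 line and -0.04 in mES cells (mean -3.40 ± 2.92, SD, n = 3 lines). The shift in balance between the Cbx genes was thus 29.6-fold and 39.0-fold in the EpiSC lines. Both folds rest in part on the dim untreated Cbx8 signal. Between untreated EpiSCs and untreated mES cells the same quantity, with the brighter Cbx2 probe, was -1.57 for the E3.5 line and -1.97 for the E5.5 line. The 3 lines are of differing kind, and these values are a description with no test.

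Among the catalytic subunits, Ezh2, the enzyme of dividing cells, stood at 2.36 in E3.5 EpiSCs with SB431542, against 1.83 untreated, and at 2.72 in E5.5 EpiSCs with SB431542, against 2.07 untreated. The mES levels were 2.47 with SB431542, against 2.46 untreated. Its whole range over the arrays was 0.90, the least of the 9 members, and the mES arrays lay between the treated and untreated EpiSC arrays of the E5.5 line. Treated and untreated EpiSCs differed by 0.59 ± 0.29 (95% interval -0.17 to 1.35, adjusted p = 0.327).

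Ezh1, the alternative enzyme, which is better known from cells that have stopped dividing, had its lowest values under SB431542. It stood at -3.99 in E3.5 EpiSCs with SB431542, against -3.56 untreated, and at -3.94 in E5.5 EpiSCs with SB431542, against -2.94 untreated. Its mES levels were -2.26 with SB431542, against -2.08 untreated. Its probe gave intensities of only 95.3 to 328, and the difference of -0.71 ± 0.32 between treated and untreated EpiSCs did not pass (adjusted p = 0.301). Between untreated EpiSCs and untreated mES cells its difference of -1.18 shrank to -0.55 under normexp background correction. The change of Ezh2 less that of Ezh1 was 0.96 in the E3.5 line, 1.64 in the E5.5 line and 0.20 in mES cells, and was thus positive, towards Ezh2, in each line.

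Eed, the subunit that binds the methyl mark, divided the arrays by cell class. It stood at 0.38 in E3.5 EpiSCs with SB431542 and 0.61 without, at 0.29 in E5.5 EpiSCs with SB431542 and 0.37 without, and at 2.34 in mES cells with SB431542 and 2.43 without. The 4 EpiSC arrays lay within 0.32 of each other and at least 1.73 below both mES arrays. Untreated EpiSCs differed from untreated mES cells by -1.94 ± 0.32 (SE, n = 2 EpiSC arrays and 1 mES array, 95% interval -2.79 to -1.09), a level 0.261 times that of mES cells, which did not pass (limma adjusted p = 0.0774). With SB431542 the EpiSC difference was -0.16 ± 0.26 (adjusted p = 0.755).

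Suz12, the scaffold of the core, stood at 1.83 in E3.5 EpiSCs with SB431542, against 2.42 untreated, and at 2.08 in E5.5 EpiSCs with SB431542, against 2.56 untreated. Its mES levels were 3.28 with SB431542, against 3.14 untreated. The order was mES above untreated EpiSCs above treated EpiSCs, and the arrays within each of these 3 classes differed by 0.25 at most. Neither step passed, at -0.54 ± 0.27 for treated against untreated EpiSCs (adjusted p = 0.334) and -0.65 ± 0.33 for untreated EpiSCs against mES cells (adjusted p = 0.44). The second Suz12 probe gave -1.21 with SB431542 in the E3.5 pair, -0.46 in the E5.5 pair and 0.32 in mES cells.

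The PRC2 partners Mtf2 and Jarid2 were lower in EpiSCs than in mES cells in every line and lowest in the treated EpiSCs, without passing a test. Not every PRC2 partner among the other Polycomb genes described below shared this order. Mtf2, a Polycomb-like protein that brings PRC2 to CG-rich DNA, stood at 2.58 in E3.5 EpiSCs with SB431542, against 3.24 untreated, and at 2.71 in E5.5 EpiSCs with SB431542, against 3.15 untreated. Treated mES cells had 4.72, against 4.54 in untreated ones. Its larger gap lay between the cell classes, at -1.35 ± 0.31 for untreated EpiSCs against untreated mES cells (95% interval -2.17 to -0.52, adjusted p = 0.14), and its 3 probes gave -1.09 to -2.05 in the single pairs of arrays. Mtf2 levels in treated and untreated EpiSCs differed by -0.55 ± 0.26 (adjusted p = 0.311).

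Jarid2, a jumonji-family protein without demethylase activity that recruits PRC2, stood at 1.44 in E3.5 EpiSCs with SB431542, against 2.32 untreated, and at 0.85 in E5.5 EpiSCs with SB431542, against 2.33 untreated. In mES cells it stood at 2.84 with SB431542, against 2.90 untreated. The treated EpiSC arrays were the lowest, and the untreated EpiSC lines differed by 0.01. The difference of -1.19 ± 0.32 (95% interval -2.02 to -0.35) did not pass over all genes (adjusted p = 0.154). Its 2 probes gave -0.89 and -1.07 in the E3.5 pair and -1.48 and -1.45 in the E5.5 pair. For untreated EpiSCs against untreated mES cells the probes disagreed in size, at -0.58 and -1.31 in the E3.5 line and -0.57 and -1.14 in the E5.5 line. The change of Jarid2 less that of Mtf2 was -0.22 in the E3.5 line, -1.04 in the E5.5 line and -0.24 in mES cells, so the lines did not share 1 size of shift.

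**Figure D2:**
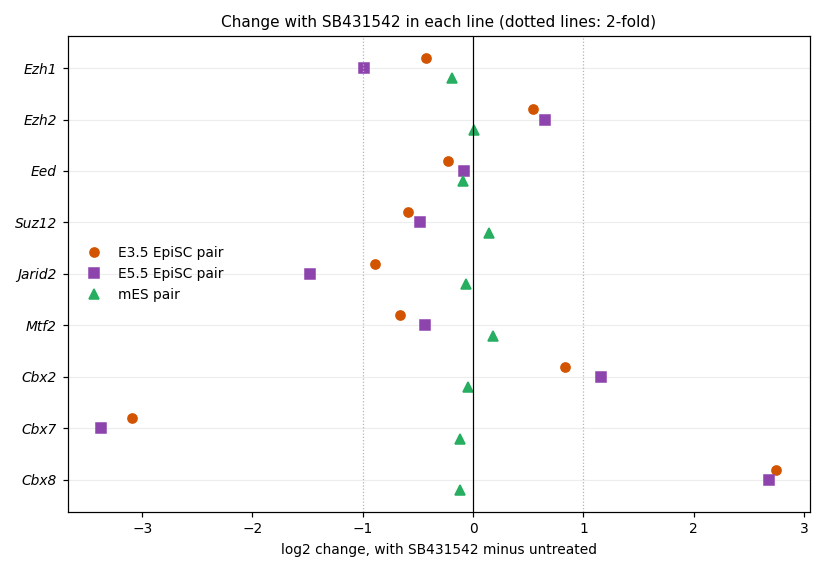
Log2 change with SB431542 (treated minus untreated array) of each of the 9 genes in the E3.5 EpiSC, E5.5 EpiSC and mES pairs, with dotted lines at a 2-fold change. Cbx7 lies at -3.09 and -3.37 and Cbx8 at 2.75 and 2.68 in the EpiSC pairs, and all 9 mES points lie between -0.19 and 0.18.

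Single pairs of arrays are described without a test. They are the same arrays as in the fits and add no further support. The counts of members are too small to set apart from the shares of all genes. In the E3.5 pair 1 of 9 members (Cbx8) was at least 2-fold higher and 1 (Cbx7) at least 2-fold lower with SB431542. Of the genes above background in that pair 11.9% were so much higher and 20.3% so much lower, shares that the member counts did not exceed. In the E5.5 pair Cbx2 and Cbx8 were higher and Jarid2 and Cbx7 lower, with 6.83% and 9.14% of all genes, and Ezh1 stood just within the limit at 0.503 times. In the mES pair 0 of 9 members passed 2-fold in either direction, with 1.46% of genes higher and 1.16% lower. The median change over all genes was -0.31 in the E3.5 pair, -0.05 in the E5.5 pair and 0.02 in the mES pair, beside which stand the E3.5 values of Suz12 (-0.59), Mtf2 (-0.66) and Ezh1 (-0.43).

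Whether the EpiSCs responded differently from mES cells was tested directly. The response in EpiSCs minus that in mES cells was -3.11 ± 0.55 for Cbx7 (95% interval -4.54 to -1.67, limma adjusted p = 0.334) and 2.84 ± 0.51 for Cbx8 (1.5 to 4.17, adjusted p = 0.337). It was 1.04 ± 0.46 for Cbx2 (adjusted p = 0.798) and -1.12 ± 0.55 for Jarid2 (adjusted p = 0.833). By limma 0 of the 9 members and 0 of 16153 genes passed (0%), with 2 members and 1125 genes at an unadjusted p under 0.05, and a single mES pair carries this comparison. Over the 3 lines together, with the line as a block, 0 members and 0 genes passed as well (0%), with 1 member and 1395 genes at an unadjusted p under 0.05. That member was Cbx7, at -2.20 ± 0.73 (adjusted p = 0.502). Leaving out either mES array turned that fit into the EpiSC fit with the line as a block, already given above. It is the same result for Cbx7 (-3.23) and Cbx8 (2.72) and no further support.

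The comparison of primed and naive cells used untreated EpiSCs and untreated mES cells, in which 0 of the 9 members passed by limma. Of all genes 0.384% were higher and 1.13% lower in EpiSCs, 1.52% in all. An unadjusted p under 0.05 was reached by 4 members (Ezh1, Eed, Mtf2 and Cbx7) and by 2664 genes. Of the 9 estimates 7 were negative, with a median of -0.65 beside -0.06 over all genes. All 6 PRC2 genes were among the 7, and the other was Cbx7 (-1.20 ± 0.39, adjusted p = 0.236). The positive estimates were those of Cbx2 (0.84 ± 0.33, adjusted p = 0.316) and Cbx8 (0.30 ± 0.36, adjusted p = 0.784). The second Cbx2 probe gave 0.10 in the E3.5 line and -0.30 in the E5.5 line, against 0.87 and 0.81 for the brighter probe, so the probes disagree here. In the single pairs, Ezh1, Eed, Mtf2 and Cbx7 were at least 2-fold lower in E3.5 EpiSCs than in mES cells (12.7% of genes lower, 11.1% higher), and Eed, Mtf2 and Cbx7 were so in E5.5 EpiSCs (10.8% lower, 12.1% higher). Between the untreated E5.5 and E3.5 arrays 0 of 9 members differed by 2-fold (6.18% of genes higher, 3.91% lower), and between the treated ones 0 of 9 (10.9% higher, 6.24% lower), counts too small to set apart from these shares.

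**Figure D3:**
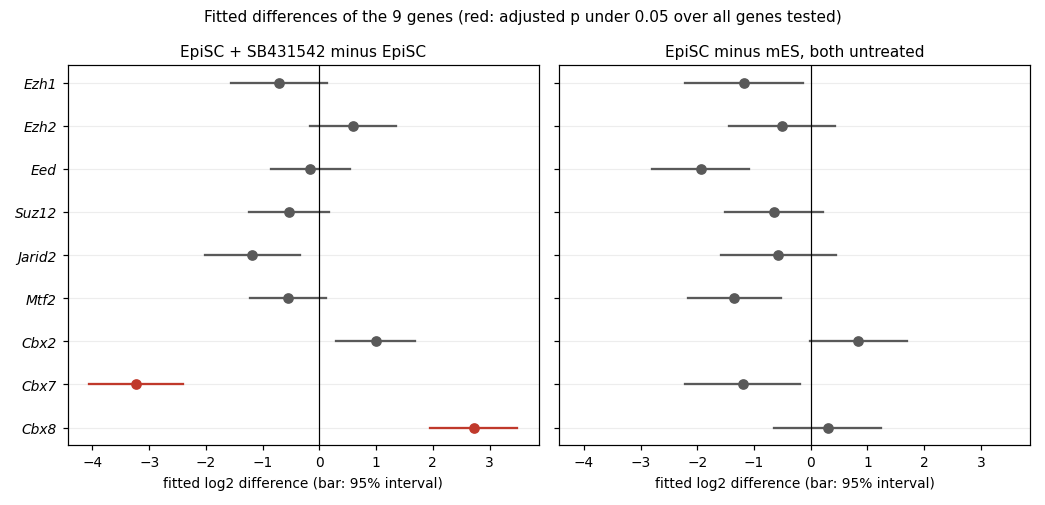
Fitted log2 differences of the 9 genes with 95% intervals from limma, for treated minus untreated EpiSCs (left) and untreated EpiSCs minus untreated mES cells (right), red where the adjusted p over all genes tested is under 0.05. Cbx7 (-3.23) and Cbx8 (2.72) are red on the left, 0 genes are red on the right, and Eed (-1.94) lies farthest from 0 there.

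The rest of the Polycomb machinery was described from a list of 29 other genes, all of them tested. Between treated and untreated EpiSCs 0 rose, 1 fell (Phc1) and 28 did not pass by limma, with a median of 0.01 and 5 at an unadjusted p under 0.05. Over all 16153 genes tested 2.13% passed, the median was -0.19 and 3225 had such a p, so the list's share lay near that of all genes.

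Phc1, a Polyhomeotic subunit of PRC1 that is abundant in ES cells, stood at 2.23 in E3.5 EpiSCs with SB431542, against 4.89 untreated, and at 2.55 in E5.5 EpiSCs with SB431542, against 4.43 untreated. In mES cells it stood at 4.64 with SB431542, against 4.81 untreated. The fitted fall was -2.27 ± 0.31 (adjusted p = 0.0484), and the call was lost under quantile normalization (-2.12, adjusted p = 0.054) and as a mean over its probes (-2.20, adjusted p = 0.0543). Its relative Phc2, chosen after its values were seen, had pair differences of 1.35 and 1.02 in the EpiSC lines. Bmi1, a PCGF subunit of canonical PRC1, stood at 0.67 and 0.13 in the treated E3.5 and E5.5 EpiSCs, against -1.64 and -2.64 in the untreated ones. Its difference of 2.54 ± 0.45 did not pass (adjusted p = 0.0768) but did with the line as a block (adjusted p = 0.0243), under normexp (2.26, adjusted p = 0.0285) and among genes above background on all arrays (adjusted p = 0.0483). Leaving out any 1 of the 4 EpiSC arrays lost the call of Phc1 (-2.50 to -2.04, adjusted p = 0.0839 to 0.174).

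Further genes of that list differed less. Rnf2, the ubiquitin ligase of PRC1, differed by 0.46 ± 0.26 (limma adjusted p = 0.375). Cbx6, another Cbx protein, differed by 0.41 ± 0.26 (adjusted p = 0.431). The histone demethylases that remove the PRC2 mark differed by 0.02 ± 0.50 for Kdm6a (adjusted p = 0.981) and 0.23 ± 0.26 for Kdm6b (adjusted p = 0.64). In untreated EpiSCs against untreated mES cells 0 of the 29 passed by limma, beside 1.52% of all genes tested. Of the 29, 6 had an unadjusted p under 0.05, and the median was -0.14. Over all 16153 genes these values were 2664 and -0.06.

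**Figure D4:**
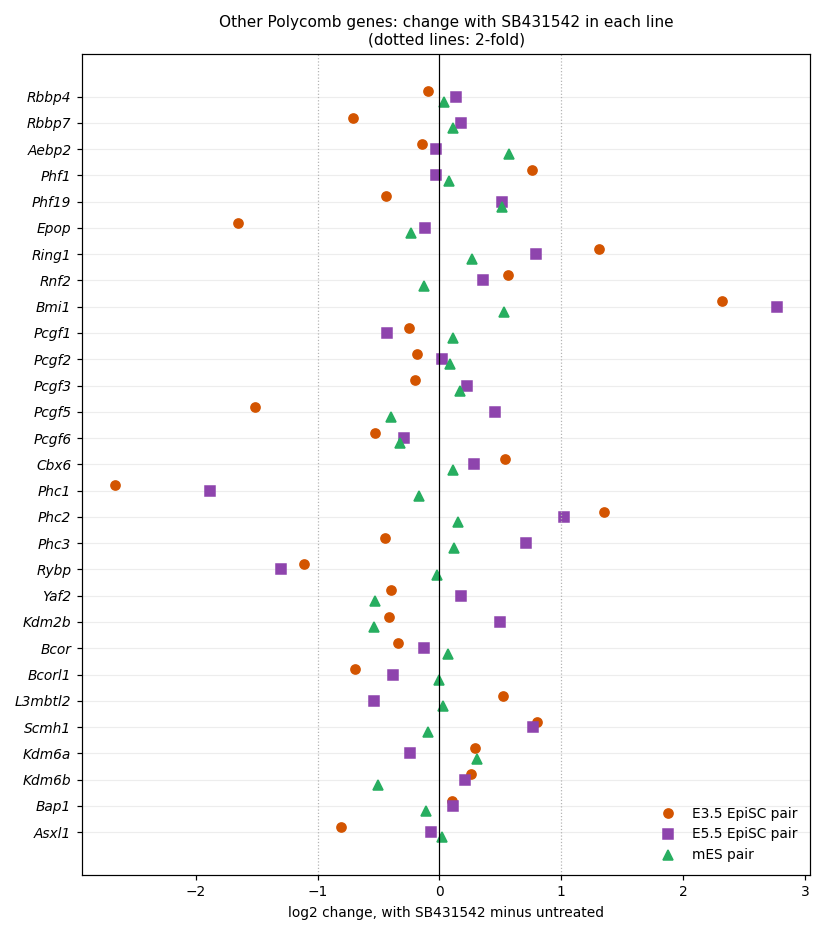
Log2 change with SB431542 of 29 other Polycomb genes in the E3.5 EpiSC, E5.5 EpiSC and mES pairs, with dotted lines at a 2-fold change. Bmi1 (2.32 and 2.77) lies farthest to the right and Phc1 (-2.66 and -1.88) farthest to the left in the EpiSC pairs, and all mES points lie within 2-fold.

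Markers of cell state moved with the Cbx genes, and their part in the result was not tested. Between treated and untreated EpiSCs 3 of 5 neural progenitor genes rose, 3 of 4 primed epiblast genes and 2 of 3 core pluripotency genes fell, and 0 of 6 fibroblast and 0 of 9 proliferation genes passed by limma (0 of either at an unadjusted p under 0.05). Of the neural genes, Pax6 (3.11, limma adjusted p = 0.053) and Sox1 (0.56, adjusted p = 0.331) did not pass. The summed linear signal of the 5 (Hes5, Pax6, Zic1, Nr2f1 and Sox1), relative to the 75th percentile, rests mostly on Hes5 and Zic1. It was 105 and 97.2 in the treated E3.5 and E5.5 EpiSCs, against 1.40 and 1.53 in the untreated ones. All 5 were above background on each of these arrays. The same sum for Pou5f1, Nanog and Sox2 was 6.87 and 7.06, against 64.5 and 76.7. Sox2, a factor of pluripotent and neural progenitor cells alike, did not share the fall, at 2.77 and 2.80 in the treated E3.5 and E5.5 EpiSCs, against 2.11 and 2.47 in the untreated ones. In mES cells the neural sum was 1.11 with SB431542, against 0.833 untreated, and the pluripotency sum 57.5, against 68.3. Summed fibroblast markers were 36.5 and 67.4 in the treated E3.5 and E5.5 lines, against 34.2 and 66.0 in the untreated ones, with all 6 above background on every array. Summed proliferation genes (9 of 10 measured) were 136 and 190, against 215 and 200. The fibroblast sum thus differed more between the lines than with SB431542, while the median difference over its 6 genes was 1.32 in the E3.5 pair and -1.33 in the E5.5 pair. The near-equal sums hide opposite moves. In the E3.5 pair Tagln differed by -2.52, against 1.99 for Col1a1, 1.63 for Col1a2 and 2.87 for Col3a1. In the E5.5 pair these values were 1.57, against -1.75, -0.82 and -1.36.

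The genes whose pattern over the 6 arrays was most like that of Cbx7 were found by the mean absolute difference of profiles centred on their own mean, among 14458 other genes above background on all arrays. They were Ell3 (0.16), Stat4 (0.16), Dsg2 (0.24), Ydjc (0.26) and Spry4 (0.30, in log2 units). Stat4, for example, stood at -4.39 and -4.90 in the treated E3.5 and E5.5 EpiSCs, against -1.01 and -1.23 in the untreated ones, and at 0.21 in treated mES cells, against 0.13 in untreated ones.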

How the data were processed

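Total RNA was hybridised to one-colour (Cy3) Agilent arrays, per the labels. The deposited intensity is the processed signal that Agilent Feature Extraction wrote. The file headers give 10.7.1.1 as its version, whereas 9.1 stands in the submitters' processing notes. The authors' deposited value table held the same intensities (45018 of 45018 per array). The spot flags are the same program's yes-or-no marks, per the file headers. Outlier and control spots were left out, repeat spots averaged, and log2 intensity taken minus the 75th percentile of gene spots (1190 to 1801). Of 41174 probes 24375 were named by accession through RefSeq (GRCm38.p6), since the files used here carry no gene name column, and the probe with the highest mean signal represents a gene. Of 17016 genes 16153, above background on at least 1 array, were tested with limma 3.58.1 in R 4.3.3 (Benjamini-Hochberg, 0.05), after tests on simulated data. The fit had 4 arms with the 2 EpiSC lines as replicates, or line plus treatment, each with 2 residual degrees of freedom. Each mES group is 1 array, whose spread was taken to equal that between EpiSC lines. Treated and untreated arrays are paired by cell line. The labels name no separate cultures. In the fit with 4 arms the spread behind a p-value is that between the EpiSC lines, slide and array included, so part may be technical. With the line in the fit, it is the spread of the response between lines. The number of arrays limits precision. Members and lists were chosen with earlier results of these data known. Text names all 9 members, 6 other set Polycomb genes, any other listed gene that passed, and the 5 genes most like the widest-ranging member. Phc2, Epop, Ring1, Yaf2 and Rybp were named after their values were seen. Alternatives were normexp (on median signals, offset 50), quantile normalization, other filters, a mean over probes, the value table, the slide, the line block and leaving out each array. A result that the list could have held is not reported here.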

Additional observations from a re-analysis of the deposited data

Results flagged for a closer look

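With SB431542, 4 members moved one way in both EpiSC lines and the other way in mES cells, and the response in EpiSCs minus that in mES cells was 2.84 for Cbx8, 1.04 for Cbx2, -0.67 for Suz12 and -0.73 for Mtf2. The mES changes were small in each case (-0.12, -0.05, 0.14 and 0.18). The signs alone made them stand out, and limma's test of the difference in response did not pass for any (adjusted p = 0.337, 0.798, 0.862 and 0.856).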

How the results depend on the processing

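Cbx7 and Cbx8 kept their calls in treated EpiSCs under all 7 alternatives that kept every array (-3.23 to -2.93 and 2.16 to 2.72), and no other member gained one there. Only normexp and quantile normalization altered the signals of these genes. The value table held the same intensities, and each gene has a single probe. The other filters and the line block left the estimates as they were. Leaving out single arrays lost the calls, as given above. The line as a replicate block gave 378 genes higher and 494 lower and, among the 9 members and Cbx6, Bmi1, Rnf2, Phc1, Kdm6a and Kdm6b, for which it was run, changed the call of Bmi1 alone. Normexp gave 300 lower genes with SB431542 in EpiSCs and 120 lower in untreated EpiSCs against mES cells. Among genes above background on all 6 arrays, 247 were higher and 299 lower with SB431542 in EpiSCs, and 119 were higher in untreated EpiSCs. Leaving out 1 array at a time moved the counts from 0 to 149 higher and 0 to 195 lower with SB431542 in EpiSCs (members 0 to 1 each way), 0 to 62 higher and 0 to 183 lower for untreated EpiSCs against mES cells, and 0 to 378 higher and 0 to 494 lower over the 3 lines (members 0 to 1 each way). Those fits have fewer arrays, and the counts of 378 and 494 are those of the EpiSC line block.

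Signs turned only for small values that did not pass. For Eed the response difference was 0.01 within slide 1 and 0.05 without untreated E3.5 (-0.19 to 0.05 over all single omissions). Kdm6a had -0.04 (normexp, 3 lines), -0.18 (normexp), -0.24 (slide 1), -0.56 (without untreated E3.5) and -0.29 (without treated E5.5) in EpiSCs with SB431542, -0.14 untreated (without untreated E5.5), and 0.03 and 0.30 for the response difference (without treated E3.5 and without untreated E5.5). Its ranges over single omissions were -0.56 to 0.61, -0.14 to 1.03 and -0.87 to 0.30. Over the 3 lines Kdm6b had 0.07 (quantile) and 0.23 (without either mES array, range -0.15 to 0.23), and Rnf2 -0.03 (mean over probes). In untreated EpiSCs Bmi1 had -0.03 (slide 1, and without untreated E3.5, range -0.03 to 0.97) and Phc1 0.08 (without untreated E5.5, range -0.38 to 0.08). The causes were not tested. A random block for the untreated comparison was not run, since 2 residual degrees of freedom gave no estimate of its correlation.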

Other observations

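The levels of 4 further genes of the machinery, none described above, were as follows. Epop, a partner of PRC2 known from ES cells, stood at 3.91 in untreated E3.5 EpiSCs and 3.36 in untreated E5.5 EpiSCs, against 6.10 in untreated mES cells, and in the treated lines at 2.26 and 3.24. Ring1, one of the paired ubiquitin ligases of PRC1, stood at 0.04 and -0.43 in the same untreated EpiSC lines, against -2.05 in mES cells. Yaf2, a subunit of variant PRC1, stood at 2.87 and 2.95, against 1.12. Its relative Rybp stood at 2.10 and 2.16, against 2.83, and at 0.99 and 0.85 in treated EpiSCs. These genes did not pass the test and were chosen after their values were seen.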
